A study of Mus musculus with 22 samples.

Results

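Matrix metalloproteinases (MMPs) are zinc-dependent enzymes that cut collagens and other proteins of the extracellular matrix. Signals of 9 MMP genes were followed in mouse loose connective tissue held stretched or shortened: Mmp2, Mmp3, Mmp8, Mmp9, Mmp10, Mmp12, Mmp13, Mmp14 and Mmp19. A gene of this list was taken when the array had a probe set annotated to that gene alone, and it was represented by the probe set with the highest mean over all 22 samples. All 9 genes met this rule, with 13 probe sets, among 12393 genes and 22626 probe sets tested. Another 9 MMP genes on the array served as a comparison list.

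Male C57BL/6 mice of 19 to 24 g gave loose subcutaneous tissue of the trunk, and the labels name no genetic change or drug in any group. In the in vivo setting, 7 animals each gave 1 stretched and 1 shortened piece. In the ex vivo setting, where the tissue was held after removal from the body, 4 other animals each gave such a pair. Within an animal the treatment was randomized, per the series design, and the force and time of the stretch are not given in the sources used here. Total RNA of the whole tissue was labelled with biotin and hybridized to an array, so a lower signal from fewer cells of a type and one from less RNA per cell cannot be told apart.

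Values are log2 signals. The array medians were 7.28 to 7.41 in vivo and 6.85 to 6.90 ex vivo, so levels in the 2 settings are compared after each array was centred on its own median. Setting, animals and this difference in scale cannot be told apart by design. Fibroblast markers were bright in both settings, with the mean of the 10 genes at 4.11 to 4.70 log2 units above the array median in vivo and 2.77 to 3.28 above it ex vivo. Skeletal muscle markers differed widely between pieces, with sample means of the 14 genes from 5.07 to 12.63 in vivo and 5.01 to 11.78 ex vivo. Gapdh control probes gauge RNA and labelling quality by how far the 3' signal exceeds the 5' signal, and this excess was 0.111 to 0.272 in in vivo animals 1 to 3, 0.866 to 3.612 in animals 4 to 7 and 0.05 to 0.912 ex vivo.

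As background, most MMPs are secreted as inactive proenzymes that other proteases switch on, and tissue inhibitors of metalloproteinases (TIMPs) block the active enzymes. Mmp8 and Mmp13 are collagenases, which cut fibrillar collagen, while Mmp3 and Mmp10 are stromelysins with broad substrates that also activate other MMPs. Mmp12 is the elastase of macrophages, Mmp2 and Mmp9 are gelatinases, Mmp14 is anchored in the cell membrane and activates proMmp2, and Mmp19 is a further secreted member. Fibroblasts of connective tissue are a known source of Mmp2, Mmp3, Mmp13 and Mmp14, and neutrophils of Mmp8 and Mmp9. Several MMP genes are known to respond to inflammatory cytokines through a promoter site for AP-1, the dimer of Fos and Jun proteins.

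Of the 9 genes, 5 lie side by side with other MMP genes in a cluster on chromosome 9, in the order Mmp13, Mmp12, Mmp1b, Mmp3, Mmp1a, Mmp10, Mmp8, Mmp27, Mmp20 and Mmp7. Mmp2 lies on chromosome 8, Mmp9 on chromosome 2, Mmp14 on chromosome 14 and Mmp19 on chromosome 10. RefSeq promoter windows (GRCm38.p6) were at hand for 6 members, and the 150 bases before the annotated start are shown because the explanted comparison separates these genes. Mmp8 and Mmp14 are shown as members without the motif that is marked. Capitals mark the AP-1 motif TGANTCA, which reads the same on both strands. All lie on the plus strand, 5′ to 3′.
Mmp13, chr9:7272364-7272513: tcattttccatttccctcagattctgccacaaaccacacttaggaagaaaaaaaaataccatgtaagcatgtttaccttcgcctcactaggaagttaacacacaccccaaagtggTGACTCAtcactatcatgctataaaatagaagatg
Mmp12, later start, chr9:7347224-7347373: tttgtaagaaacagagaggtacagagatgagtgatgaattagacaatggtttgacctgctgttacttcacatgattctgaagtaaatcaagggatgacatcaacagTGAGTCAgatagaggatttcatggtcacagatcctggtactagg
Mmp3, chr9:7445672-7445821: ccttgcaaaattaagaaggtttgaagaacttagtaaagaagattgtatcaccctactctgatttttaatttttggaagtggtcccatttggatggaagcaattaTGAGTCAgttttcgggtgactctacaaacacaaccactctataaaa
Mmp10, chr9:7502192-7502341: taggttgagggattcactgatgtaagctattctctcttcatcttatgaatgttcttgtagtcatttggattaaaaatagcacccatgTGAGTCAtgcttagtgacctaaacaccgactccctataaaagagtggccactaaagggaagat
Mmp8, chr9:7558279-7558428: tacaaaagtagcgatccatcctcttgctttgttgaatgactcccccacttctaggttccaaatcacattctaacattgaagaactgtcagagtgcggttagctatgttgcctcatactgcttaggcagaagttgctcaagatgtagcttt
Mmp14, chr14:54431448-54431597: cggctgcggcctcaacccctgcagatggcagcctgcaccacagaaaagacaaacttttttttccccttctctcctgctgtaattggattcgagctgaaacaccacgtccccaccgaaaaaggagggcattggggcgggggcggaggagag

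The AP-1 motif began at position -35 before the start in Mmp13, -46 in Mmp3, -63 in Mmp10 and -44 before the later of the annotated Mmp12 starts. It was not in the 300-base windows of Mmp8, Mmp14 or the earlier Mmp12 start. Of 32851 windows of that length, 7.81% held it. The ETS motif AGGAAG, searched on both strands, was in 35.4% of windows, among them those of Mmp13 at -109 and -62, Mmp3 at -183, Mmp8 at -220, Mmp14 at -209 and the earlier Mmp12 start at -87. A match says only that these letters are in the window.

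Against tissue in vivo, explanted tissue had far higher Mmp13 and Mmp12, higher Mmp3 and Mmp14, and much lower Mmp9. In shortened pieces all 9 genes passed the test, 8 higher and 1 lower, by limma with Benjamini-Hochberg adjustment at 0.05. In stretched pieces 8 of 9 passed, 7 higher and 1 lower. These counts stand against a background in which 66.5% of all probe sets passed in shortened pieces (36.9% higher, 29.6% lower) and 63.5% in stretched pieces (35.1% higher, 28.4% lower), so a call alone says little about these genes.

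The collagenase Mmp13 was near the bottom of the in vivo arrays. Its deposited log2 signal was 2.91 to 3.12 (median 3.00) in the 7 shortened and 2.77 to 3.16 (median 2.98) in the 7 stretched pieces. In explanted shortened tissue it was 8.95, 7.71, 8.50 and 6.76 in animals 1 to 4, and in explanted stretched tissue 8.78, 8.41, 9.22 and 6.54. Every explanted piece was above every in vivo piece, and animal 4 was the lowest of the explanted animals in both pieces. On centred arrays the difference was 5.43 ± 0.30 log2 units (SE, 4 against 7 animals, limma adjusted p = 7.71e-09) in shortened pieces, a 43.2-fold difference, and 5.70 ± 0.37 (adjusted p = 5.58e-08) in stretched pieces. Among 12393 genes these were the 17th and the 13th largest increases. By rank within the array, which does not depend on centring, 2.05% to 5.91% of probe sets were dimmer than Mmp13 in vivo and 45.6% to 80.9% ex vivo. The values carry no detection call, so how far the in vivo signal stood above background was not tested.

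The other collagenase, Mmp8, was low everywhere. Its deposited log2 signal was 3.86 to 4.28 (median 4.22) in vivo shortened and 4.24 to 5.07 (median 4.37) in vivo stretched. After explantation it was 3.90, 3.91, 4.07 and 4.26 in shortened and 3.86, 3.93, 4.20 and 3.90 in stretched pieces. The groups overlapped after centring, while as deposited every in vivo stretched piece was above every explanted stretched one, so the difference between settings has no settled direction. In shortened pieces it was 0.32 ± 0.11 (adjusted p = 0.0164) on centred arrays but -0.14 (adjusted p = 0.229) on the deposited scale. In stretched pieces it was -0.03 ± 0.15 (adjusted p = 0.865) on centred arrays and -0.48 (adjusted p = 0.0114) as deposited.

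Of the stromelysins, Mmp3 was bright in vivo and brighter ex vivo. Its deposited log2 signal was 10.74 to 11.20 (median 11.03) in shortened and 10.49 to 11.17 (median 10.94) in stretched tissue in vivo. Ex vivo it was 12.30, 11.78, 12.20 and 12.30 in shortened and 12.01, 12.33, 12.29 and 11.98 in stretched tissue. No explanted piece overlapped an in vivo piece, on either scale. After centring the difference was 1.61 ± 0.12 (3.05-fold, adjusted p = 1.5e-07) in shortened and 1.70 ± 0.16 (3.26-fold, adjusted p = 1.32e-06) in stretched pieces, and 1.15 and 1.26 on the deposited scale.

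Mmp10, the second stromelysin, had a lower and less even signal. In vivo it was 5.04 to 5.78 (median 5.44) in shortened and 5.23 to 5.77 (median 5.33) in stretched pieces, as deposited. Ex vivo it was 5.61, 5.72, 6.77 and 5.88 in shortened pieces and 5.45, 5.44, 5.47 and 5.35 in stretched pieces. The shortened piece of ex vivo animal 3 stood highest, and the 4 explanted stretched pieces lay within the in vivo range on the deposited scale. The centred difference was 1.05 ± 0.22 (adjusted p = 0.000839) in shortened and 0.49 ± 0.12 (adjusted p = 0.00262) in stretched pieces. As deposited these were 0.59 and 0.04 (adjusted p = 0.728 for the latter), so the call in stretched pieces rests on the centring.

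The macrophage elastase Mmp12 went from near the array floor in vivo to an intermediate signal ex vivo. As deposited it was 2.73 to 3.45 (median 3.19) in shortened and 2.92 to 3.39 (median 3.09) in stretched tissue in vivo. In explanted tissue it was 6.22, 5.93, 5.92 and 5.96 in shortened and 5.92, 5.26, 5.76 and 5.93 in stretched pieces. Explanted and in vivo pieces did not overlap, and the share of dimmer probe sets went from 2.27% to 7.77% in vivo to 30.5% to 42.0% ex vivo. The centred difference was 3.32 ± 0.13 (9.99-fold, adjusted p = 3.62e-10, 85th largest increase of all genes) in shortened and 3.00 ± 0.14 (adjusted p = 4.29e-09, the 112th) in stretched pieces. As for Mmp13, how far the in vivo signal stood above background was not tested, so the fold and the rank are those of the array signals after centring. This increase came beside mostly lower macrophage markers. Of the 12 measured, 10 were called lower in both comparisons, against 34% and 32.6% of all genes. In shortened pieces 1 was called higher and in stretched pieces 2, and the largest estimates were 1.46 and 1.62. Sample means of the list were 4.15 to 4.69 log2 units above the array median in vivo and 1.26 to 2.60 above it ex vivo. Cd163, a scavenger receptor of resident macrophages, was lower by 4.61 ± 0.16 (SE) in shortened and 5.46 ± 0.15 in stretched pieces. The part of macrophage content in the MMP values was not tested.

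The gelatinase Mmp9 was the 1 member that was lower in explanted tissue. In vivo its deposited log2 signal was 9.80 to 10.54 (median 10.14) in shortened and 9.64 to 10.52 (median 10.01) in stretched pieces. Ex vivo it was 6.14, 5.85, 6.75 and 5.73 in shortened and 5.85, 5.90, 7.89 and 5.64 in stretched pieces. All explanted pieces lay below all in vivo pieces, and animal 3 was the highest explanted animal in both pieces. The centred difference was -3.59 ± 0.18 (12.1-fold lower, adjusted p = 4.06e-09) in shortened and -3.29 ± 0.36 (9.76-fold lower, adjusted p = 4.93e-06) in stretched pieces, the 46th and the 85th largest decreases of all genes. A second Mmp9 probe set gave -3.13 ± 0.22 and -2.96 ± 0.35.

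Neutrophils are a known source of Mmp9, and their markers went in both directions. Of 9 neutrophil markers 6 were higher and 1 lower in shortened pieces, and 5 higher and 2 lower in stretched pieces. Of all genes 33.3% and 32% were called higher and 34% and 32.6% lower in these comparisons. As deposited the counts of the list were 2 and 3, and 2 and 2, so the direction of this list depends on the scale. Of 12393 genes 1939 and 1817 were called higher and 7572 and 7378 lower as deposited. Named after their values were seen, the lower markers were the granule protein lactoferrin (Ltf), at -0.77 ± 0.15 and -0.94 ± 0.17, and S100a9, at -0.43 ± 0.25 (adjusted p = 0.146) in shortened and -1.17 ± 0.32 (adjusted p = 0.00683) in stretched pieces. Lcn2, an iron-trapping protein that other cells also make under inflammatory signals, was higher by 6.70 ± 0.17 and 6.55 ± 0.26, and Camp, a granule peptide, by 1.06 ± 0.17 and 0.98 ± 0.11. Sample means of the list were at -2.28 to -1.50 relative to the array median in vivo and -1.26 to -0.60 ex vivo. Of 12 macrophage markers 10 were lower in both comparisons, as given above. The part of neutrophil or macrophage content in the Mmp9 values was not tested.

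The other gelatinase, Mmp2, was among the brightest genes of the tissue in every group. As deposited it was 12.55 to 12.94 (median 12.78) in shortened and 12.51 to 12.82 (median 12.71) in stretched tissue in vivo. Explanted tissue read 13.12, 12.72, 12.97 and 13.04 in shortened and 13.14, 13.01, 12.82 and 12.69 in stretched tissue. These ranges overlap as deposited and separate once arrays are centred. Centring gave a difference of 0.65 ± 0.08 (1.57-fold, adjusted p = 8.79e-06) in shortened and 0.68 ± 0.10 (1.60-fold, adjusted p = 5.49e-05) in stretched pieces. On the deposited scale it was 0.19 (adjusted p = 0.0516) and 0.24. A second Mmp2 probe set gave 0.35 ± 0.09 and 0.48 ± 0.10 after centring. Its deposited means were 12.86 in vivo and 12.75 ex vivo in shortened pieces, and 12.75 and 12.78 in stretched pieces. After centring its shortened groups still overlapped and its stretched groups did not. The direction in shortened pieces by this probe set therefore depends on the scale. More than 98% of probe sets were dimmer than Mmp2 in every sample, the lowest share being 98.4%.

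The membrane-anchored Mmp14 was higher ex vivo by an amount that depended on the in vivo animals. As deposited it was 10.77 to 11.86 (median 11.12) in shortened and 10.70 to 11.87 (median 10.89) in stretched tissue in vivo. Ex vivo it was 11.86, 11.56, 11.94 and 11.98 in shortened and 11.82, 11.87, 11.93 and 11.75 in stretched tissue. Explanted and in vivo pieces overlapped as deposited and separated once arrays were centred. In vivo animals 1 to 3 reached 11.10 to 11.87 and animals 4 to 7 only 10.70 to 11.12. The centred difference was 1.05 ± 0.18 (adjusted p = 0.000239) in shortened and 1.23 ± 0.19 (adjusted p = 0.000121) in stretched pieces, and 0.59 and 0.79 as deposited. Against in vivo animals 1 to 3 alone it was 0.68 and 0.87, and against animals 4 to 7 alone 1.33 and 1.5, all with adjusted p of 0.00391 or less.

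A second Mmp14 probe set spread far more. It read 9.38 to 10.67 in in vivo animals 1 to 3, 6.02 to 8.28 in animals 4 to 7 and 10.01 to 11.15 ex vivo, as deposited. The low readings fell on the same arrays as the large Gapdh 3' to 5' differences. Its centred difference was 3.05 ± 0.86 (adjusted p = 0.00716) in shortened and 3.02 ± 0.79 (adjusted p = 0.00471) in stretched pieces, against about 1 log2 unit by the brighter probe set. The part of RNA quality in either value was not tested.

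**Figure D1:**
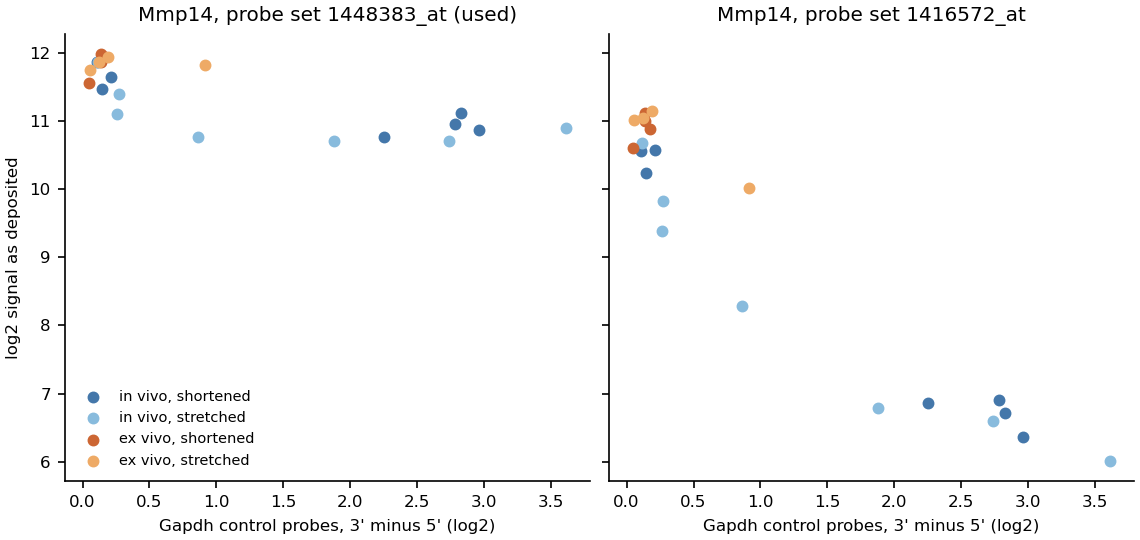
Deposited log2 signal of the 2 Mmp14 probe sets (y axis) against the 3' minus 5' difference of the Gapdh control probes (x axis, log2), 1 point per sample, coloured by group. The probe set used spans 10.70 to 11.98, while the other falls from 10.67 or 11.15 at small differences to 6.02 at the largest difference of 3.612.

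Mmp19 was the least settled of the higher members. As deposited it was 5.43 to 6.76 (median 6.08) in shortened and 5.35 to 7.27 (median 6.41) in stretched tissue in vivo. The explanted pieces read 7.05, 6.30, 6.21 and 6.94 in shortened and 7.04, 7.18, 6.94 and 6.86 in stretched tissue. The groups of shortened pieces overlapped and those of stretched pieces did not after centring. Centred arrays gave 1.01 ± 0.23 (adjusted p = 0.00175) in shortened and 1.18 ± 0.28 (adjusted p = 0.00284) in stretched pieces. As deposited these were 0.55 (adjusted p = 0.0568) and 0.73. Against in vivo animals 1 to 3 alone the centred difference was 0.69 and 0.66, and against animals 4 to 7 alone 1.25 and 1.57. Animals 4 to 7 had the larger Gapdh 3' to 5' differences of the in vivo setting, and the part of RNA quality was not tested. The second probe set of Mmp19 gave -0.06 ± 0.17 (adjusted p = 0.767) and 0.25 ± 0.15 (adjusted p = 0.167), so the probe sets of this gene disagree.

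**Figure D2:**
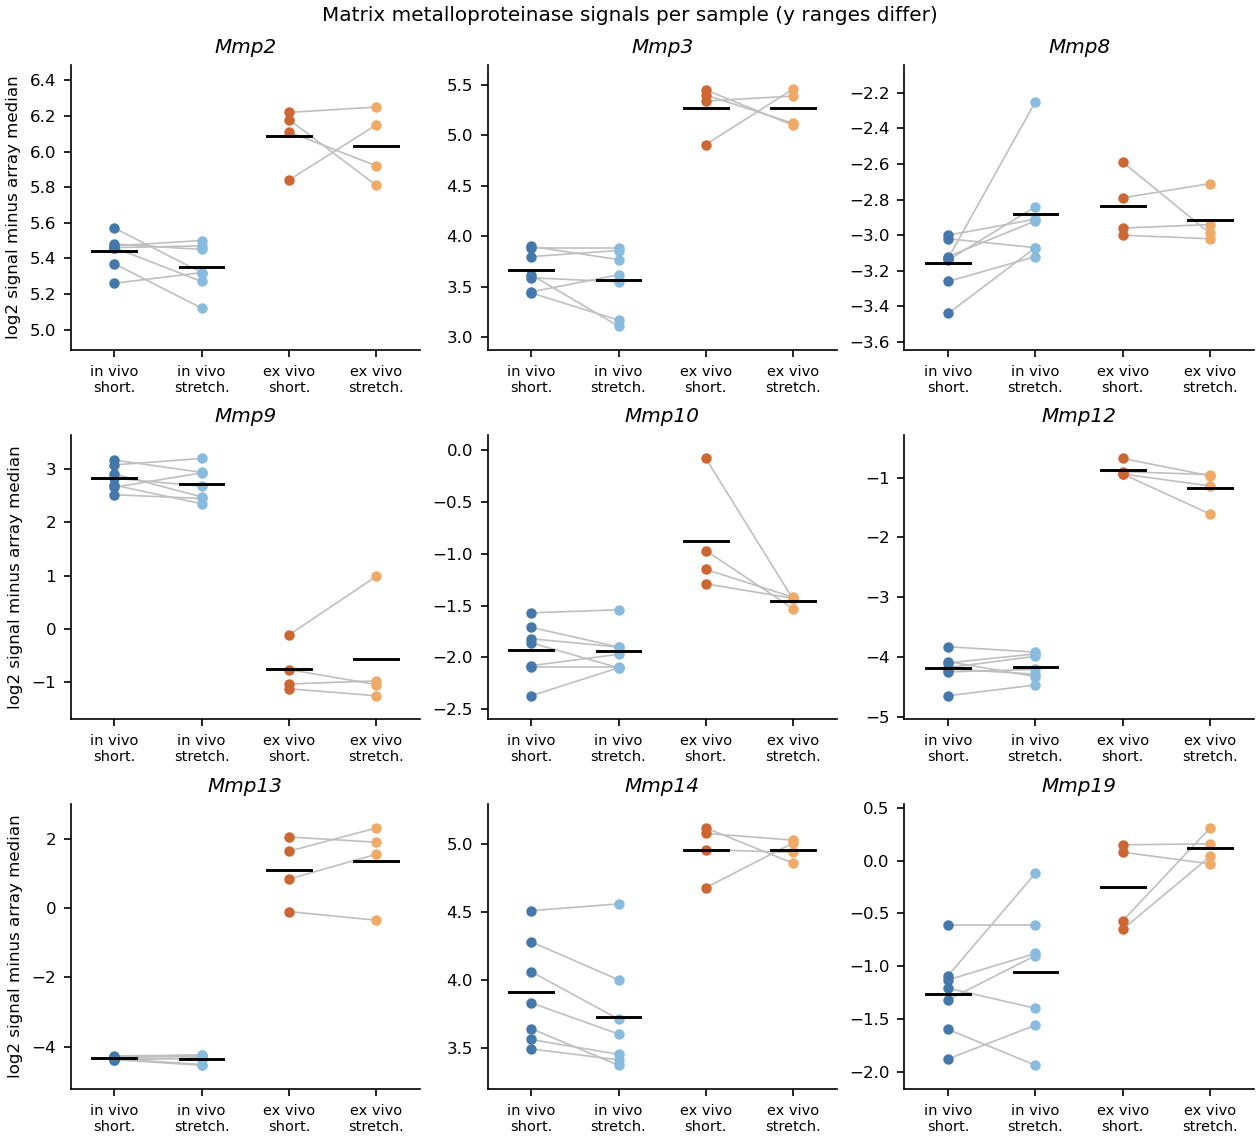
Log2 signal minus the array median for the 9 MMP genes (y axis, a different range in each panel), 1 point per sample in the 4 groups on the x axis; grey lines join the pieces of 1 animal and black bars are group means. Mmp13 and Mmp12 sit near -4 in vivo and between -1.61 and 2.31 ex vivo, Mmp9 runs the other way, and the lines within a setting have no shared slope for most genes.

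Ordered by centred group means, both explanted groups were above both in vivo groups for Mmp2, Mmp3, Mmp10, Mmp12, Mmp13, Mmp14 and Mmp19, and below them for Mmp9. For Mmp8 the in vivo shortened group was lowest, at -3.16 ± 0.15 (SD, n = 7), and the other groups lay between -2.91 and -2.84. Within a setting the shortened and stretched groups were neighbours in this order for these 8 genes, and their ranges overlapped except for Mmp10 and Mmp12 ex vivo. Across settings 6 of 9 genes were higher with no overlap in shortened pieces and 7 of 9 in stretched pieces, where 26.7% and 24.2% of all genes were. Lower with no overlap was Mmp9 in both, as were 26.6% and 23.4% of all genes. As deposited 3 of 9 were higher with no overlap in each comparison, 1 was lower in shortened pieces (Mmp9) and 2 in stretched pieces (Mmp8 and Mmp9). The shares of all genes are those of centred arrays and were not computed as deposited. On the deposited scale 1939 and 1817 of 12393 genes were called higher and 7572 and 7378 lower, in shortened and stretched pieces.

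**Figure D3:**
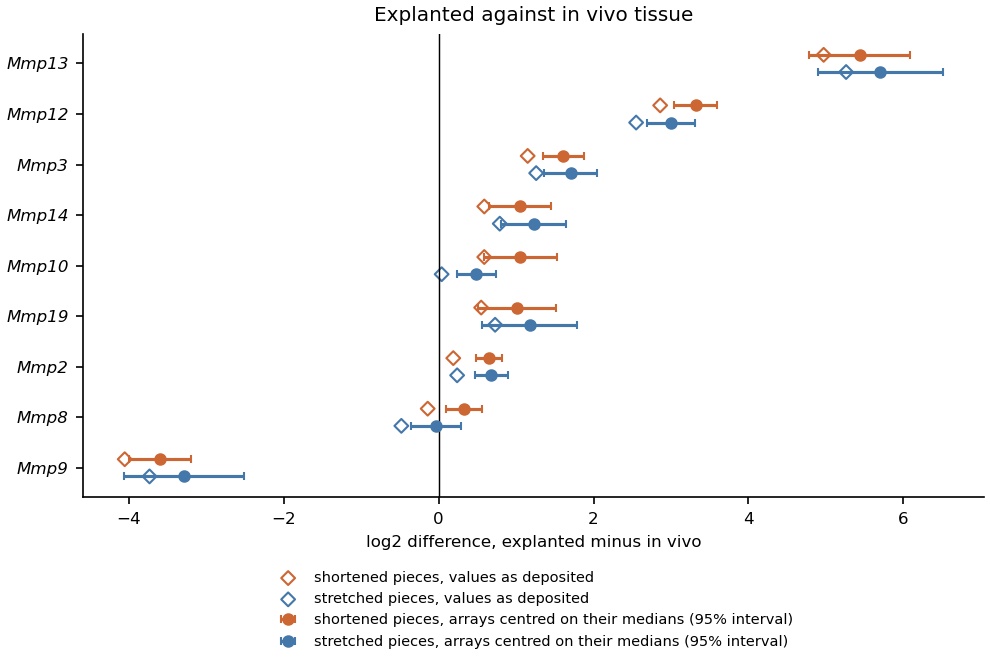
Explanted minus in vivo difference in log2 units (x axis) for each MMP gene (y axis), in shortened and stretched pieces; filled points with bars are limma estimates on centred arrays with 95% intervals, and open diamonds are the same difference on the deposited scale. Mmp13, Mmp12 and Mmp3 lie to the right and Mmp9 to the left on both scales, while Mmp8 lies on both sides of 0.

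The scale moved the size of every member. On the deposited scale the median difference of all probe sets was -0.383 in shortened pieces, against 0.078 after centring, and 23.8% of called probe sets were higher in place of 55.5%. In stretched pieces 23.3% were higher in place of 55.3%. With quantile normalization over all arrays of the fit 8 and 7 members were higher and 1 lower in each comparison, and Mmp13 differed by 5.33 and 5.60. Under it 3738 and 3683 of 12393 genes were called higher and 4827 and 4526 lower, in shortened and stretched pieces. As deposited, 5 members were called higher and 1 lower in shortened pieces, and 6 higher and 2 lower in stretched pieces. Of 12393 genes 1939 and 1817 were then called higher and 7572 and 7378 lower.

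The MMP inhibitors did not move as 1 group. Beside Timp1, Timp2, Timp3 and Timp4 the list held Reck, A2m, Pzp and Tfpi2, which are not TIMPs. Of 8 inhibitor genes 3 were higher and 4 lower in explanted tissue in both comparisons, with median differences of -0.717 and -0.587, against -0.014 and -0.016 over all genes. Timp1, the inducible secreted inhibitor, was higher by 3.49 ± 0.14 (adjusted p = 3.95e-10) and 3.97 ± 0.18 (adjusted p = 2.49e-09). Timp3, which is bound to the matrix, was lower by 1.87 ± 0.08 and 1.73 ± 0.12. The other 3 lower genes, named after their values were seen, were Timp2 at -1.87, Timp4 at -2.59 and the membrane-anchored Reck at -1.55 in shortened pieces. As deposited the list had 2 higher and 5 lower genes in each comparison. On that scale 1939 and 1817 of 12393 genes were called higher and 7572 and 7378 lower, so lower calls are common there. On centred arrays 33.3% and 32% of all genes were called higher and 34% and 32.6% lower.

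Among 13 proteases, receptors and inducers that serve MMP activation, 4 were higher and 7 lower in shortened pieces, and 4 higher and 6 lower in stretched pieces. These counts, on centred arrays, stand against the centred shares of all genes given for the inhibitors. Plaur, the receptor that holds urokinase at the cell surface, was higher by 1.95 ± 0.10 and 2.14 ± 0.14. Pcsk6, a proprotein convertase, was lower by 3.53 ± 0.12 and 3.39 ± 0.17. As deposited 4 were higher and 7 lower in both comparisons, where 1939 and 1817 of 12393 genes were called higher and 7572 and 7378 lower.

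Of 17 measured cytokines and transcription factors known to induce MMP genes, 13 were higher and 2 lower in each explanted comparison, with medians of 1.14 and 0.99, against -0.014 and -0.016 over all 12393 genes, of which 4132 and 3962 were higher. Fosl1, the Fos-family partner Fra-1 in AP-1, was higher by 6.54 ± 0.13 (adjusted p = 1.45e-12) and 6.36 ± 0.14 (adjusted p = 1.02e-11). The cytokine Il6 was higher by 7.31 ± 0.38 and 7.03 ± 0.41. As deposited 10 were higher and 3 lower in shortened pieces, and 10 higher and 2 lower in stretched pieces. Of all genes 1939 and 1817 were called higher and 7572 and 7378 lower on that scale. Osm, Runx2 and Nfkb1 were on the list and not analysed here.

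The matrix genes whose products MMPs cut were mostly lower. Of 13 genes 8 were lower and 1 higher in both comparisons, and 12 and 11 were lower as deposited. Of all 12393 genes 4217 and 4037 were called lower on centred arrays. As deposited 7572 and 7378 were, so lower calls are common on that scale. Col5a1, a chain of fibril-regulating type V collagen, was lower by 3.14 ± 0.12 and 3.11 ± 0.10, and fibronectin (Fn1) by 1.09 ± 0.08 and 1.21 ± 0.12. Of the 9 other MMP genes 3 were higher and 3 lower in shortened and 4 higher and 3 lower in stretched pieces. That balance depends on the scale, since 1 and 0 were higher and 6 lower as deposited. Mmp23 was lower by 2.07 ± 0.13 and 1.64 ± 0.23, and Mmp11 was higher by 1.19 ± 0.15 in shortened pieces.

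**Figure D4:**
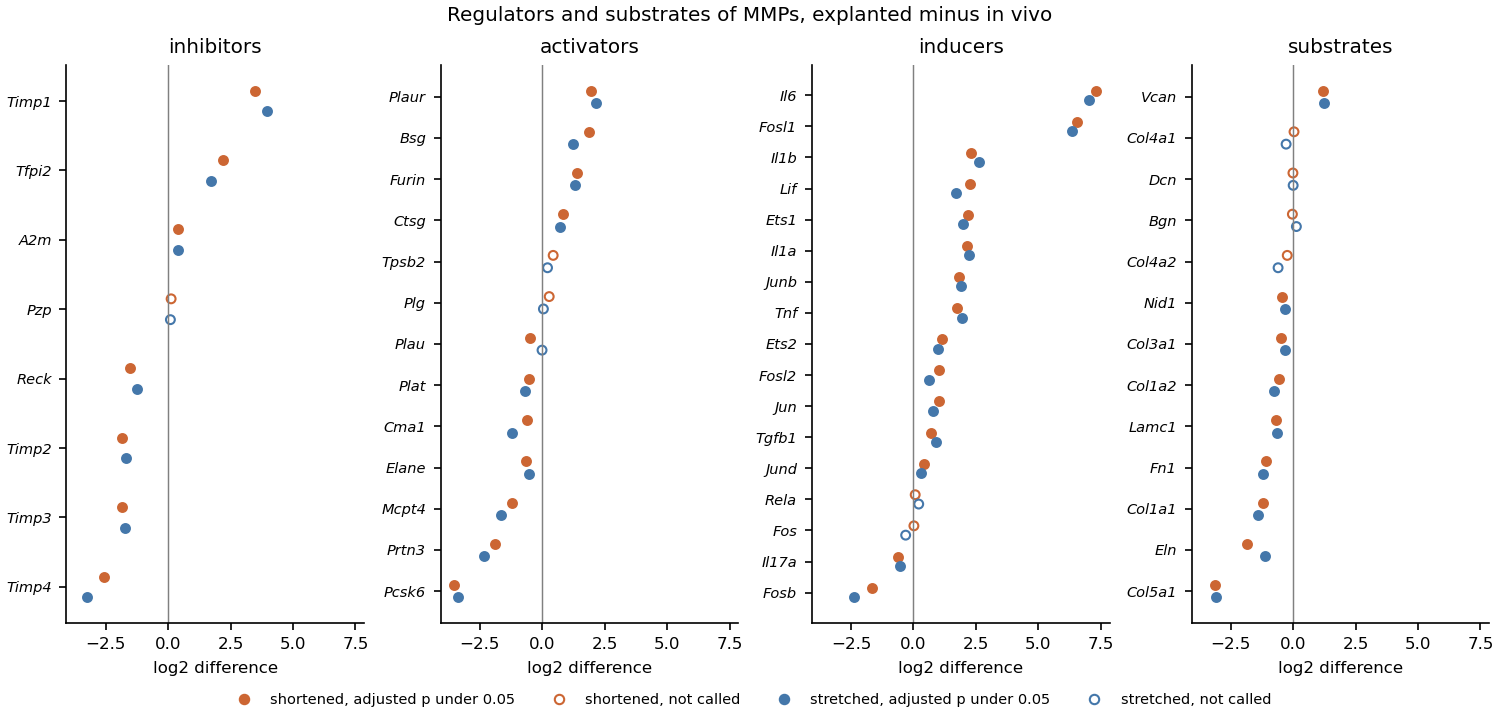
Explanted minus in vivo differences on centred arrays (x axis, log2) of MMP inhibitors, activating proteases, inducers and substrates (1 gene per line), in shortened and stretched pieces; filled points passed an adjusted p of 0.05. Il6 and Fosl1 lie above 6, Timp1 above 3 and the other TIMP genes below -1.

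Markers of other cell types moved between settings beside the MMP genes, as did much of the array. Of all genes 33.3% and 32% were called higher and 34% and 32.6% lower, in shortened and stretched pieces. As deposited 1939 and 1817 of 12393 genes were called higher and 7572 and 7378 lower. Of 10 fibroblast markers 9 were lower and 1 higher in both comparisons, among them Fap, at -1.93 ± 0.11 and -2.30 ± 0.17. Of 8 mast cell markers 2 were higher and 5 lower in both, with Cpa3 lower by 1.87 ± 0.24 and 2.84 ± 0.12. Of 7 adipocyte markers 5 were lower in both, and Lipe was lower by 1.97 ± 0.33 and 2.47 ± 0.53. Of 8 endothelial markers 4 were higher and 2 lower in shortened and 2 and 2 in stretched pieces, and of 8 keratinocyte markers 3 were higher and 2 lower, then 1 and 2. As deposited the endothelial list had 2 higher and 3 lower genes in shortened and 1 and 3 in stretched pieces, and the keratinocyte list 1 and 3, then 1 and 4, so the balance of these lists depends on the scale. The adipocyte list had 7 and 6 lower genes as deposited, and the fibroblast list 0 higher and 9 lower in both. Of 14 skeletal muscle markers 0 had a higher mean in explanted tissue in either comparison, with medians of -1.791 in shortened and -1.405 in stretched pieces, and 2 and 0 of them passed the test. The part of these cell types in the MMP differences was not tested, beyond the fit with the muscle marker mean as a covariate.

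Within animals, static stretch moved no MMP gene past the threshold in vivo. Of 9 genes 0 were called by limma with the animal as a block, and 2 had an unadjusted p under 0.05, against 19.3% of all probe sets. The background of called probe sets was 0.0% as well, although 4373 had an unadjusted p under 0.05. Differences of the members ran from -0.18 to 0.28 log2 units, with adjusted p from 0.172 to 0.924.

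Mmp14 had the smallest p of the members in vivo. Its stretched minus shortened differences were 0.01, -0.25, -0.37, -0.23, -0.25, -0.07 and -0.11 in animals 1 to 7, lower in 6 of 7. The mean was -0.18 ± 0.05 (SE, limma unadjusted p = 0.00391 and adjusted p = 0.172), with a 95% interval of -0.29 to -0.07. Lower in at least 6 of 7 animals were 17.6% of all genes. The second Mmp14 probe set gave -0.09 ± 0.28.

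Mmp8 was the other member with an unadjusted p under 0.05. Its differences were 0.85, 0.22, 0.12, 0.29, -0.02, 0.09 and 0.37 in animals 1 to 7, higher in 6 of 7, as were 11% of all genes. The mean was 0.28 ± 0.10 (limma unadjusted p = 0.0165 and adjusted p = 0.184), and the largest value was that of animal 1. Of 9 neutrophil markers 6 had a higher estimate and 0 passed the test, with a median of 0.131. The smallest p of that list were those of S100a8, at 0.52 ± 0.10, and S100a9, at 0.59 ± 0.15 (limma adjusted p = 0.172 for each). Of 12 macrophage markers 0 had a higher estimate and 0 passed, with a median of -0.138.

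The other 7 members differed by at most 0.20 in vivo. Mmp19 differed by 0.20 ± 0.14 with 5 of 7 animals higher (0.19 ± 0.07 and 6 of 7 by its second probe set, limma adjusted p = 0.19), Mmp9 by -0.12 ± 0.08, Mmp3 by -0.11 ± 0.07 and Mmp2 by -0.09 ± 0.05. For Mmp10, Mmp12 and Mmp13 the 95% intervals were -0.17 to 0.14, -0.12 to 0.15 and -0.13 to 0.08. A change of the Mmp13 array signal of the size seen between settings lies far outside that interval. In vivo signals of Mmp12 and Mmp13 lay near the bottom of the arrays, and how far above background was not tested. Their narrow intervals therefore need not bound a change in RNA.

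Ex vivo, stretch again moved 0 of 9 genes past the threshold, and 1 had an unadjusted p under 0.05, against 11.1% of all probe sets. Called probe sets made up 0.0% of the background, with 2508 at an unadjusted p under 0.05. Adjusted p of the members ran from 0.402 to 0.991. With 4 animals the intervals were wider than in vivo.

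Mmp10 and Mmp12 were lower in the stretched piece of all 4 explanted animals. Mmp10 differed by -0.16, -0.28, -1.31 and -0.53 in animals 1 to 4, with a mean of -0.57 ± 0.20 (SE, limma unadjusted p = 0.0251 and adjusted p = 0.402). Without animal 3 its mean was -0.32. Mmp12 differed by -0.30, -0.67, -0.16 and -0.02, with a mean of -0.29 ± 0.13 (limma adjusted p = 0.484), and without animal 2 its mean was -0.16. Lower in 4 of 4 animals were 8.89% of all genes. Centred ranges of the stretched and shortened groups did not overlap for these 2 genes, as for 3.48% of all genes in that direction, and Mmp12 groups did overlap as deposited.

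Mmp13 and Mmp19 had a different split among explanted animals. Mmp13 differed by -0.17, 0.70, 0.72 and -0.22, and Mmp19 by 0.00, 0.88, 0.74 and -0.08, so by these probe sets both were higher by 0.70 or more in animals 2 and 3 and near or below 0 in animals 1 and 4. The means were 0.26 ± 0.20 (limma adjusted p = 0.668) and 0.38 ± 0.19 (limma adjusted p = 0.51), with 95% intervals of -0.21 to 0.73 and -0.07 to 0.84. The second Mmp19 probe set was higher in all 4 animals, by 0.10, 1.00, 0.75 and 0.22, with a mean of 0.52 ± 0.17 (limma adjusted p = 0.394). Mmp9 differed by -0.30, 0.05, 1.15 and -0.10. For Mmp2, Mmp3, Mmp8 and Mmp14 the mean differences were -0.04, 0.01, -0.06 and 0.01.

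**Figure D5:**
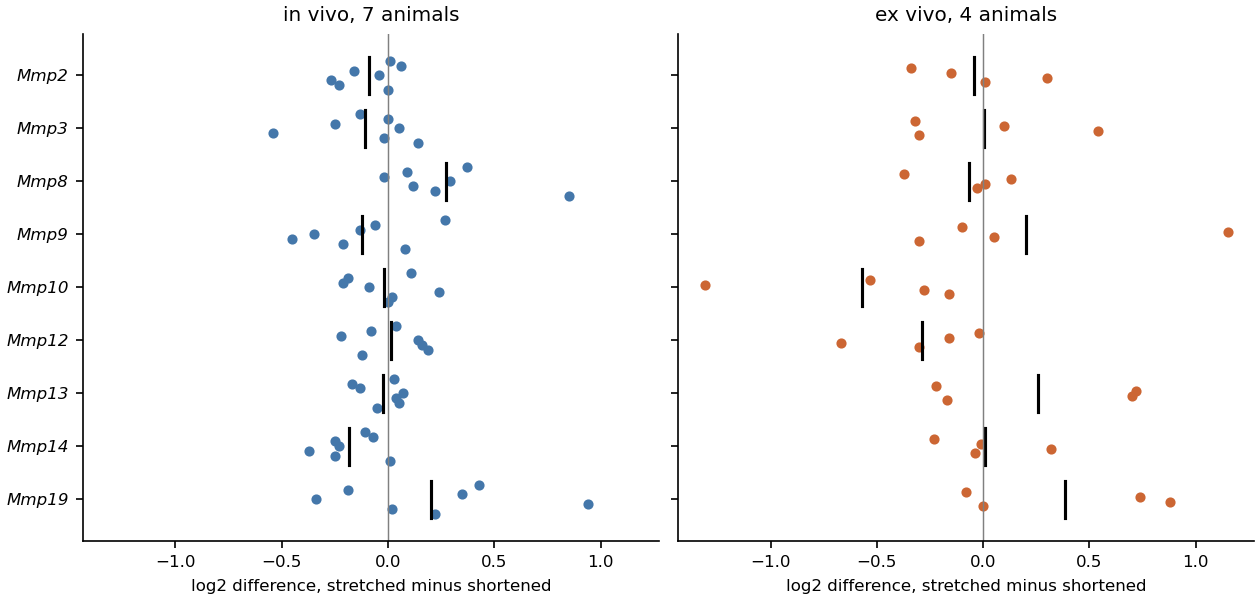
Stretched minus shortened difference of each animal in deposited log2 units (x axis) for the 9 MMP genes (y axis), in vivo on the left and ex vivo on the right; black bars are means. In vivo points lie between -0.54 and 0.94, and ex vivo all 4 points of Mmp10 and of Mmp12 lie below 0.

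Muscle content differed within pairs in both settings. All 14 skeletal muscle markers were higher in stretched pieces on average, with medians of 2.216 in vivo and 2.564 ex vivo, and 0 passed the threshold. Myh4, a fast myosin, differed by 2.76 ± 0.71 in vivo and 4.07 ± 1.15 ex vivo. With the muscle marker mean as a covariate no member was called either. In vivo, Mmp8 went from 0.28 to 0.47 and Mmp10 from -0.02 to 0.07 with it. Ex vivo, Mmp10 went from -0.57 to -0.25, Mmp12 from -0.29 to -0.46 and Mmp9 from 0.20 to -0.09. The MMP regulators and substrates held no called gene in either stretch comparison: Timp3 differed by -0.25 ± 0.07 in vivo (limma adjusted p = 0.172), and Timp1 by 0.48 ± 0.09 ex vivo (limma adjusted p = 0.352).

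The difference between the stretch effects of the settings was tested on all 22 samples. Of 9 members 0 were called and 3 had an unadjusted p under 0.05, Mmp8, Mmp10 and Mmp12, against 15.3% of all probe sets, while 40 probe sets (0.177%) were called. Mmp10 had the smallest adjusted p, with a difference of -0.55 ± 0.19 (SE, limma adjusted p = 0.192). For Mmp8 it was -0.34 ± 0.15 (limma adjusted p = 0.319) and for Mmp12 -0.30 ± 0.13 (limma adjusted p = 0.29). The Mmp10 difference was -0.30 without ex vivo animal 3, and that of Mmp12 was -0.18 without ex vivo animal 2. No difference between the settings in their response to stretch was therefore shown for any member.

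The genes whose profiles were most like each member were listed after each setting was centred on its own mean, over 22 samples that share animals, arrays and tissue content. For Mmp2 these were Col14a1, a fibril-associated collagen (Pearson r = 0.901, Spearman rho = 0.887), and the lysosomal protease Lgmn (r = 0.878). For Mmp9 they were the formyl peptide receptor Fpr2 (r = 0.865, rho = 0.773) and the integrin Itgam (r = 0.857, rho = 0.846), both known from myeloid cells. Mmp9 read 6.75 and 7.89 in ex vivo animal 3, against 5.64 to 6.14 in the other explanted pieces. The r of Mmp9 can lean on that animal. For Mmp13 the genes most alike were Aif1 (r = 0.900, rho = 0.640) and Adgre1 (r = 0.887, rho = 0.652), both macrophage genes. The SD of centred Mmp13 was 0.04 and 0.12 in vivo and 0.95 and 1.18 ex vivo, in shortened and stretched pieces. These r therefore rest mostly on the explanted pieces of 4 animals.

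Mmp14 had the closest match of the members, with the bicarbonate transporter Slc4a4 (r = 0.963, rho = 0.946) and Efcab14 (r = 0.947). Only the mean of each setting was removed, so the lower Mmp14 signal of in vivo animals 4 to 7 remained in these r. Those arrays also had the larger Gapdh 3' to 5' differences of the in vivo setting, and the part of RNA quality in these r was not tested. Mmp19 followed Smpd1, a sphingomyelinase (r = 0.893), and Ppp2r5b (r = 0.877). Its signal was 6.22 to 7.27 in in vivo animals 1 to 3 and 5.35 to 6.41 in animals 4 to 7. The limit given for Mmp14 therefore holds for the r of Mmp19 too. Mmp10 followed Sprr2f (r = 0.899, rho = 0.768), which encodes a keratinocyte envelope protein, and Rps27 (r = 0.869). The highest Mmp10 signal, 6.77, was that of the shortened piece of ex vivo animal 3, and these r can lean on that piece. Matches were weaker for Mmp3, with Hhip at 0.770 and Pigx at 0.701, for Mmp8, with Cd70 at 0.737 and Crtam at 0.693, and for Mmp12, with Vip at 0.688 and Prpf4b at 0.680. No p is given for these correlations, which describe likeness only.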

How the data were processed

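Total RNA of 22 tissue pieces from 11 animals was measured on arrays. The authors deposited log2 signals, made with RMA and the affy package per the submitters' processing notes, without versions; the values run from 1.89 to 14.4. Control probe sets (64 of 22690) were left out. Symbols came from the platform annotation, updated by gene ID: 20380 probe sets had 1 symbol, 691 several and 1555 none. No detection calls or scanner files were used, and the number of arrays limits precision.

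Each comparison was fitted over 22626 probe sets with limma 3.58.1 in R 4.3.3 (lmFit, eBayes with trend), Benjamini-Hochberg adjusted, threshold 0.05. Stretch comparisons had the animal as a block and the difference between settings had 11 blocks. Comparisons between settings had no block and used arrays centred on their medians. A number shared by 2 samples of a setting was read as the same animal, because the design text describes a comparison within animals. Deviations of paired samples correlated at r = 0.385 to 0.867 in vivo and 0.109 to 0.284 ex vivo. For in vivo animals 5 and 7 and ex vivo animals 1 and 2 the partner was not the best match. The code was tested on simulated data.

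Gene lists, cell type markers and members were chosen with earlier results of these data known. Beside members, the text names at most the 2 genes per list and comparison with the smallest p, and the 2 genes most correlated with each member; exceptions are stated. Alternatives covered normalization, centring, filters, eBayes settings, weights, muscle content, subsets of animals and each animal left out.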

Additional observations from a re-analysis of the deposited data

Results flagged for a closer look

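Of 54 sets of values tested for a sample far from the others, by the gap of an extreme value to its neighbour over the range of the group, 5 stood apart; chance gives about 1 in 20. All are deposited log2 signals. Mmp9 in the explanted stretched piece of animal 3 was 7.89, with the next highest at 5.90. Mmp12 in the explanted shortened piece of animal 1 was 6.22, with the next at 5.96. Mmp8 was 5.07 in the in vivo stretched piece of animal 1, with the next at 4.47, and 3.86 in the in vivo shortened piece of animal 7, with the next lowest at 4.15. Mmp10 was 5.77 in the in vivo stretched piece of animal 1, with the next at 5.39. Without animal 3 the ex vivo stretch difference of Mmp9 was -0.11 in place of 0.20.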

How the results depend on the processing

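Of 880 member values under alternatives, 842 kept direction and call, 32 reversed, 5 lost their call and 1 gained one. The explanted differences of the 8 members other than Mmp8 came to 346 values, of which 0 reversed and 3 lost their call. These alternatives used the brightest probe set of a gene or the mean of its probe sets, never another probe set alone. By itself the second Mmp19 probe set gave -0.06 in shortened and 0.25 in stretched pieces, neither called. The second Mmp2 probe set had a lower deposited mean ex vivo in shortened pieces, 12.75 against 12.86. In stretch comparisons 0 members were called under any alternative, among them the fit with no replicate block, in which Mmp14 in vivo was -0.18 (limma adjusted p = 0.987) and Mmp10 ex vivo -0.57 (limma adjusted p = 0.48). Keeping only probe sets with a mean of at least 6 left 5 called members in both explanted comparisons, since fewer members were tested. Calls lost as deposited were Mmp2 at 0.19 and Mmp19 at 0.55 in shortened and Mmp10 at 0.04 in stretched pieces. With 1 animal left out, 8 to 9 members were called in shortened and 8 in stretched pieces. Mmp8 in shortened pieces lost its call without ex vivo animal 4 (0.24, range 0.24 to 0.38) and with the muscle covariate (0.27), and was -0.14 as deposited. In stretched pieces Mmp8 was 0.07 with array weights, 0.06 against in vivo animals 4 to 7, -0.48 as deposited, and -0.10 to 0.07 with 1 animal left out.

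Small stretch differences changed sign, and the cause was not tested. In vivo, Mmp10 was 0.07 and Mmp13 0.04 with the muscle covariate, 0.06 and 0.03 without animals 5 and 6, and 0.09 and 0.01 in animals 1 to 3, while Mmp12 was -0.03 in animals 4 to 7. With 1 animal left out, Mmp10 ran from -0.06 to 0.02 and Mmp12 from -0.01 to 0.05. Ex vivo, Mmp2 was 0.13 and Mmp9 -0.09 with the muscle covariate, and 0.16 and -0.12 without animals 3 and 4. Centring gave Mmp3 -0.01 and Mmp14 0.00, and the mean of all probe sets gave Mmp14 -0.04. With 1 animal left out, Mmp2 ran from -0.16 to 0.05, Mmp3 from -0.17 to 0.12, Mmp8 from -0.13 to 0.04, Mmp9 from -0.11 to 0.37 and Mmp14 from -0.09 to 0.09. For the difference between settings Mmp2 ran from -0.07 to 0.15 and Mmp3 from -0.07 to 0.22. The count of 40 called probe sets in that comparison ran from 3 with no replicate block to 330 with array weights, 344 at a threshold of 0.10, and 0 to 663 with 1 animal left out.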
